A study of Mus musculus with 2 samples.

Results

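The 6 genes described here encode potassium channel subunits, and a receptor that acts on one of these channels, in blood vessel wall cells and in the cells that pass nerve signals to gut muscle. They were chosen by symbol among the 28692 features of the count tables, and all 6 were found in both libraries. Kcnj8 and Abcc9 encode the pore and the sulfonylurea receptor subunit of the ATP-sensitive potassium channel of pericytes and vascular muscle. Kcnn3 encodes a small conductance potassium channel opened by calcium, and P2ry1 a receptor for extracellular ADP and related purines that raises calcium. Kcnma1 and Kcnmb1 encode the pore and the smooth muscle beta subunit of the large conductance channel opened by calcium and voltage.

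Potassium leaving a cell makes its inside more negative, which keeps voltage-gated calcium channels closed and relaxes muscle. In vessels, the ATP-sensitive channel couples the metabolic state of the tissue to the tone of pericytes and muscle. In the gut wall, purines released by enteric inhibitory neurons act on the P2ry1 receptor of PDGFRA+ fibroblast-like cells, where the Kcnn3 channel then opens, and the hyperpolarisation spreads to the muscle through gap junctions. The large conductance channel is a brake on contraction in vascular and visceral smooth muscle.

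Single-cell RNA-seq had been performed on 1 library of large intestinal (LI) grafts and 1 library of small intestinal (SI) grafts. EYFP male mice had been crossed with C57BL/6Nrj females, and the small or large intestine of their embryos (E12.5) had grown for 4 weeks beneath the renal capsule of wild-type adults. Live cells positive for YFP and Itgb1 and negative for CD45, Ter119, BP3, CD31, EpCAM and L1CAM had been sorted, to take cells of the graft. Some other cells passed the sort, among them immune cells and a SI cluster of 14 cells with the kidney tubule gene Slc34a1 among its leading genes. Their origin, graft or host, was not tested. By design the libraries differ in the gut segment. For the LI library 3 colonic grafts had been pooled, and the number of grafts behind the SI library was not stated in the sources used here.

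Counting unique molecular identifiers (UMIs), the LI library held 63348069 UMIs in 11568 barcodes and the SI library 54918006 in 9631. After barcodes under 500 genes or over 10% mitochondrial UMIs were set aside, there were 9873 LI and 7910 SI cells, with a median of 5288 and 5682 UMIs. The libraries shared 26 barcode sequences. Each cell was put in a class by the number of fixed marker genes it held, and the 6 genes were in no marker list. This gave 276 LI and 378 SI Myh11- pericytes, 278 and 703 Myh11+ mural cells, 535 and 605 visceral smooth muscle cells (SMC), and 329 and 49 interstitial cells of Cajal (ICC). Fibroblasts (FB) comprised 593 and 477 PDGFRAhi FB, 1560 and 1775 CD81 FB, 484 and 260 Fgfr2 FB, and 5202 and 3131 FB that met no subset rule and are called other FB. All 8 mural markers reached 20 UMIs per 1000000 UMIs of the class (CPM) in both mural classes of both libraries, and all 8 visceral SMC markers and all 4 ICC markers did so in their own class. Markers of endothelial cells, which the sort had excluded by CD31, summed to between 10.7 and 42.4 CPM in the mural classes, against 7001 to 7741 CPM of mural markers.

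The grafts differed in the sex of their cells. Among cells whose sex could be called from Xist and Y-linked UMIs, 10.0% were male in the LI library and 30.6% in the SI library. Of the 889 male LI cells, 87.6% lay in 3 clusters that were 82.6%, 91.0% and 94.4% male, while in each other LI cluster at most 9.09% of sexed cells were male. Sex, embryo and graft cannot be told apart in these libraries, and values for female and male cells are given beside some of the levels below. With 1 library per group there is no replicate check and no test. Intervals are exact 95% intervals that cover counting error only.

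Kcnj8 and Abcc9 are neighbours in the mouse genome. In the GENCODE vM21 annotation of mm10, Kcnj8 (ENSMUSG00000030247) spans chr6:142564837-142571614 and Abcc9 (ENSMUSG00000030249) spans chr6:142587862-142702315, both on the minus strand and 16247 bases apart. The bases just before each gene are shown because both genes followed one order across most of the cell classes described below. They were read from the RefSeq promoter table (GRCm38.p6), on the minus strand and 5′ to 3′, and end before the first annotated base of each gene. Capitals mark matches to the E-box (CANNTG) and to TGGGAA, the core bound by the Notch effector RBPJ, searched on both strands.
Kcnj8 chr6:142571615-142571864: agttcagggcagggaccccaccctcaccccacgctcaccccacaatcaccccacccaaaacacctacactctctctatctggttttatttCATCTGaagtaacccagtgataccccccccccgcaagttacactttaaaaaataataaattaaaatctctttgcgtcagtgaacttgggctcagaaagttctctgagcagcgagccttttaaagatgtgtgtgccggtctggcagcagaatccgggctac
Abcc9 chr6:142702316-142702524: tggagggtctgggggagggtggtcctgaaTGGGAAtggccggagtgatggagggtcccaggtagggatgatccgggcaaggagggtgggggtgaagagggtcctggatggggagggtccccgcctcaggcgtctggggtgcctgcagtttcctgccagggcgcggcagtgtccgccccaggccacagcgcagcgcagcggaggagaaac
These matches are common. An E-box was present in 66.2% of 32851 windows of 250 bases before RefSeq starts, and TGGGAA in 21.6%. The E-box of Kcnj8 began 160 bases before its RefSeq start, Abcc9 had an E-box 27 bases before its own, outside the printed stretch, and TGGGAA was also found 187 bases before the start of Kcnn3. The CArG box of smooth muscle genes (1.47% of windows) and TATAAA (12.4%) were in none of the 6 windows.

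The other 4 genes lie apart. Kcnn3 (ENSMUSG00000000794) spans chr3:89520164-89675132 and P2ry1 (ENSMUSG00000027765) chr3:61002795-61008982, both on the plus strand. Kcnma1 (ENSMUSG00000063142) spans chr14:23289431-24014491 on the minus strand and has 31 annotated coding transcripts, which UMI counts per gene do not separate. Kcnmb1 (ENSMUSG00000020155) spans chr11:33963013-33973641 on the plus strand.

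**Figure D1:**
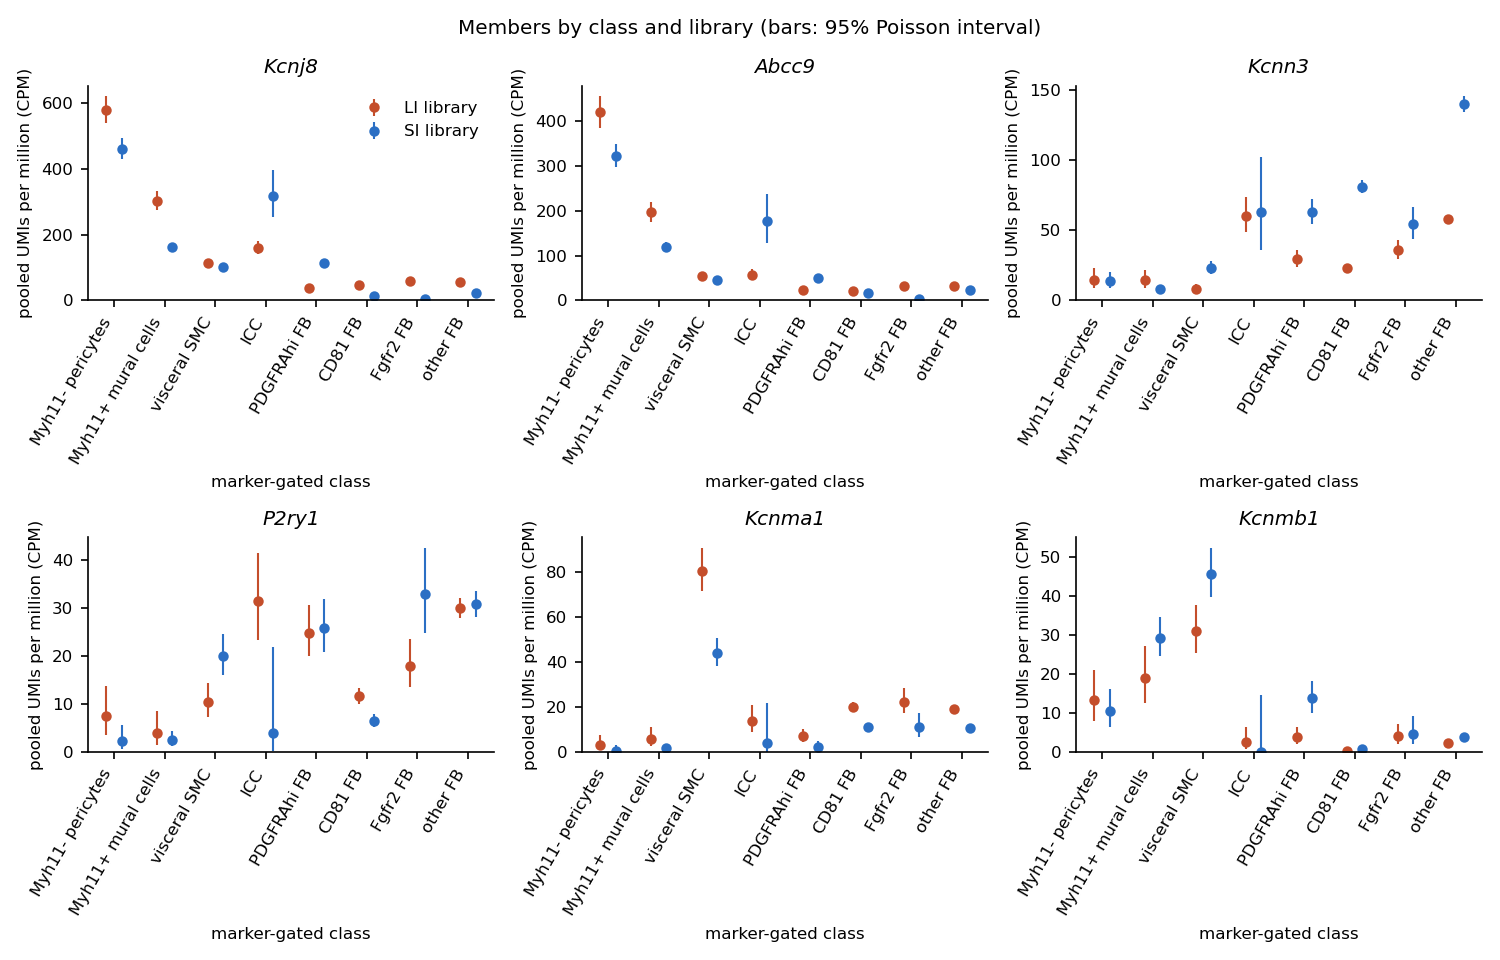
Pooled level of each gene (CPM, linear axis from 0) in the 8 marker-gated stromal classes, LI library in red and SI library in blue, with bars for the exact 95% Poisson interval. Kcnj8 and Abcc9 are highest in Myh11- pericytes, Kcnma1 and Kcnmb1 in visceral SMC, and Kcnn3 is highest in other FB of the SI library at 140 CPM.

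Among the gated classes, Kcnj8 and Abcc9 were highest in Myh11- pericytes of both libraries. This class is mural cells with 0 Myh11 UMIs, and the smooth muscle actin gene Acta2 was seen in 52.9% of LI and 61.4% of SI cells. Vascular muscle cells in which Myh11 was missed can be among them. Kcnj8, the channel pore, was at 578 CPM (538 to 620) in LI pericytes and 460.0 CPM (429 to 492) in SI pericytes, and 71.7% and 59.0% of these cells held a UMI. Abcc9, the regulatory subunit, was at 419 CPM (385 to 455) and 322 CPM (297 to 350), in 72.1% and 59.3% of the cells. For comparison, Kcnj8 was seen in 15.9% (8.98% to 25.3%) of 88 LI immune cells and 5.48% (1.51% to 13.4%) of 73 SI immune cells. Their median depth of 5743 and 7343 UMIs exceeded that of pericytes (4171 and 3648). A cell with at least 3 immune markers was called immune whatever its stromal markers. The SI cluster of immune cells held 21 cells, fewer than these 73. Some gated immune cells thus lay in other clusters, and they are no clean background. Thinned to 2000 UMIs per cell, 55.3% of LI and 46.4% of SI pericytes still held Kcnj8, against 8% and 3.08% of immune cells. Thinning left out 10 LI and 35 SI pericytes with fewer UMIs, and 13 and 8 immune cells.

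Against all FB pooled, Kcnj8 in pericytes was higher by a log2 of 3.45 (3.34 to 3.57) in the LI and 4.05 (3.92 to 4.18) in the SI library. The difference for Abcc9 was 3.85 (3.71 to 3.99) and 3.78 (3.63 to 3.93). Of the 6 genes 3, Kcnj8, Abcc9 and Kcnmb1, were at least 2-fold higher in pericytes than in FB in both libraries, as were 6.8% of the 8722 genes compared. The other 3 were lower in pericytes than in FB in both libraries. Kcnn3 stood at 14.9 and 13.7 CPM in pericytes, P2ry1 at 7.44 and 2.19 CPM, and Kcnma1 at 2.97 and 0.55 CPM, which rests on 4 UMIs and 1 UMI.

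Mural cells with a Myh11 UMI, which include vascular muscle, held less of both subunits. Kcnj8 was at 302 CPM (275 to 331) in LI and 163 CPM (152 to 175) in SI Myh11+ mural cells, and Abcc9 at 197 CPM (175 to 220) and 119 CPM (109 to 130). The same 3 genes as in pericytes were at least 2-fold above FB, beside 8.03% of 8751 genes. Over all cells, the 2 libraries were less than 2-fold apart for both subunits in both mural classes. The LI over SI log2 ratio of Kcnj8 was 0.33 (0.19 to 0.47) in pericytes and 0.88 (0.71 to 1.05) in Myh11+ mural cells. None of the 4 member genes with at least 10 CPM was, over all cells, at least 2-fold apart in pericytes (6.41% of 8905 genes) or in Myh11+ mural cells (3.85% of 8821 genes). In female cells alone Kcnj8 was past 2-fold in Myh11+ mural cells, at 253 CPM in LI and 107 CPM in SI. Female Kcnj8 in pericytes and Abcc9 in both classes stayed under 2-fold. In male cells alone, with 23 LI pericytes and 11 LI Myh11+ mural cells, both subunits were past 2-fold in both classes. Kcnj8 was at 1192 against 466 CPM in pericytes and 827 against 199 CPM in Myh11+ mural cells. Abcc9 was at 1011 against 357 CPM and 458 against 123 CPM.

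Kcnj8 and Abcc9 were lower in each step of the amount of Myh11, the muscle myosin heavy chain. The mural cells were divided into those with 0, 1, 2 to 3 and 4 or more Myh11 UMIs, bins chosen after the data had been seen. Kcnj8 stood at 578, 480.1, 317 and 119 CPM in these bins of the LI library (276, 102, 92 and 84 cells). In the SI library it stood at 460.0, 307, 243 and 68.8 CPM (378, 178, 193 and 332 cells). Abcc9 took the same order, from 419 to 77.3 CPM in the LI and from 322 to 51.6 CPM in the SI library. Kcnmb1 was highest in the last bin but not in steps, at 13.4, 9.96, 13.9 and 32.1 CPM (18.7 to 51.3 in the last) in the LI library and 10.4, 21.9, 14.6 and 39.3 CPM (31.8 to 48.0 in the last) in the SI library. Acta2, smooth muscle actin, went from 816 to 7693 CPM in LI and from 1670 to 8133 CPM in SI over the same bins. Mural markers differed among themselves between the first and the last bin. Vtn went from 321 to 224 CPM in LI and from 569 to 279 CPM in SI, and Higd1b from 149 to 99.98 CPM and from 293 to 98.7 CPM. Rgs5 went from 4016 to 3926 CPM in LI and from 4500 to 3128 CPM in SI. Notch3 went up, from 331 to 498 CPM and from 431 to 464 CPM, as did Mcam, from 236 to 323 CPM and from 272 to 403 CPM. Median depth went across the bins from 4171 to 5625.5 and from 3648 to 5775 UMIs, so the lower Kcnj8 and Abcc9 levels were in the deeper cells.

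**Figure D2:**
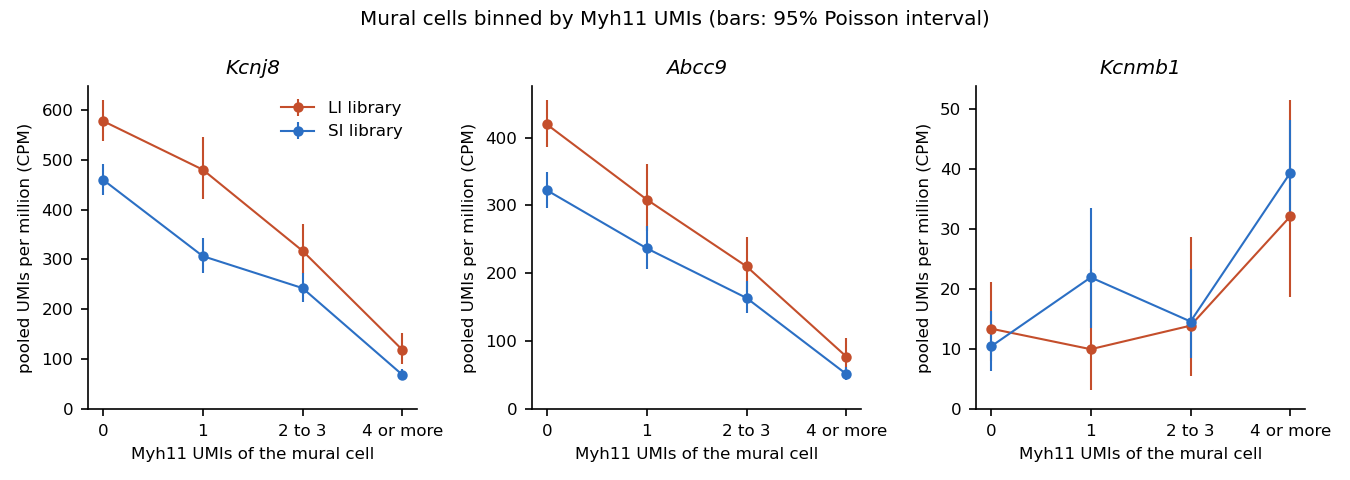
Kcnj8, Abcc9 and Kcnmb1 (CPM, linear axis from 0) in mural cells binned by their Myh11 UMIs, LI in red and SI in blue, with bars for the exact 95% Poisson interval. Kcnj8 goes from 578 to 119 CPM in LI and from 460.0 to 68.8 CPM in SI between cells with 0 and cells with 4 or more Myh11 UMIs, while Kcnmb1 is highest in the last bin of both libraries.

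Clusters made without any potassium channel or purinergic receptor gene separated these poles in the SI library. A mural cluster of 777 cells led by Higd1b and Vtn held 333 CPM of Kcnj8, 241 CPM of Abcc9 and 20.9 CPM of Kcnmb1. A second mural cluster of 505 cells, led by Nrip2 and Rcan2, held 21.0, 21.7 and 33.3 CPM of the same 3 genes and 1593 CPM of Myh11, against 319 CPM in the first. The LI library had a single mural cluster (680 cells), at 382 CPM of Kcnj8 and 274 CPM of Abcc9. Kcnj8 in the Nrip2 cluster of SI was thus below its level in SMC, at 6.73% of cells with a UMI.

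Visceral SMC and ICC held Kcnj8 and Abcc9 at intermediate levels. Kcnj8 was at 114 CPM (103 to 126) in LI SMC and 102 CPM (93.0 to 112) in SI SMC, and Abcc9 at 54.7 and 45.5 CPM. In ICC, the pacemaker cells of gut muscle, Kcnj8 was at 159 CPM (139.7 to 179.5) in the LI library and at 318 CPM (253 to 395) in the 49 SI ICC. Abcc9 was at 57.3 CPM in LI ICC and 177 CPM in SI ICC, where its interval overlapped that of Myh11+ mural cells. Kcnj8 and Abcc9 were at least 2-fold above FB in ICC of both libraries, beside 6.49% of 8865 genes, and none of the other 3 genes with enough UMIs was. In the LI library the fold for Abcc9 was 2.004, at the threshold, and it was under 2-fold in female cells alone, with 33.1 CPM in ICC and 22.9 CPM in FB, against 119 and 41.4 CPM in male cells.

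The class averages covered cells of very different levels. In the SI library a SMC cluster of 107 cells led by Pcp4, Actg2, Ckm and Chrm2 held 369 CPM (332 to 410) of Kcnj8, with a UMI in 86.0% of its cells, and 127 CPM of Abcc9. The other SI SMC cluster, 352 cells led by Hhip, Npnt and Frem2, held 49.9 CPM (40.4 to 61.0) of Kcnj8 and 31.7 CPM of Abcc9. In the LI library, the cluster with the highest Kit (292 cells, 1420 CPM of Kit) held 79.3 CPM of Kcnj8. A second LI cluster that also held Kit (148 cells led by Lcn2, Hand1 and Fst, with 357 CPM of Kit and 1336 CPM of Grem1) held 519 CPM of Kcnj8 (474 to 568) and 128 CPM of Abcc9, above the LI mural cluster for Kcnj8. Of the sexed cells of this cluster 94.4% were male. The 39 cells of the SI Kit cluster, which also had Hand1 among its leading genes, held 320.0 CPM of Kcnj8.

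The balance of the pair varied little within the mural cells. Kcnj8 made up 57.9% (55.2% to 60.6%) of the UMIs of both genes in LI pericytes and 58.8% (56.2% to 61.4%) in SI pericytes. The share was higher in SMC, at 67.6% (63.6% to 71.4%) and 69.2% (65.5% to 72.6%), and in LI ICC, at 73.5% (68.5% to 78.1%). It was lowest in SI CD81 FB, at 44.8% (40.2% to 49.5%). UMIs of 2 genes can be captured with unequal efficiency, so only the differences between classes are read here.

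Kcnj8 in the LI library differed between male and female cells. In FB pooled, male LI cells held 157 CPM of Kcnj8 and female LI cells 22.4 CPM, a log2 difference of 2.76 (2.63 to 2.88), from 733 and 6377 cells. In the SI library the same comparison gave 23.0 and 26.9 CPM, a log2 difference of -0.22 (-0.43 to -0.0053), from 1297 and 3293 cells. Kcnj8 was the only one of 5 member genes at least 2-fold apart in LI FB, where 13.8% of 8747 genes were that far apart. In SI FB 1.78% of 8593 genes were, among them Kcnn3 of the 5 members.

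The LI difference was seen in nearly every class. Kcnj8 was at 1192 CPM in 23 male and 501 CPM in 214 female pericytes, at 333 and 94.1 CPM in 26 and 468 SMC, and at 506 and 79.2 CPM in 35 and 259 ICC. Among FB it was at 243 and 21.7 CPM in other FB, 318 and 17.0 CPM in Fgfr2 FB, and 87.7 and 21.0 CPM in CD81 FB. PDGFRAhi FB were the exception, with 49.6 CPM (10 UMIs in 30 male cells) and 35.9 CPM, and an interval of the log2 difference that spans 0 (-0.61 to 1.37). Abcc9 was also higher in male LI cells, with intervals above 0, in 6 of the 8 classes. In the mural classes it was at 1011 against 355 CPM in pericytes and 458 against 174 CPM in Myh11+ mural cells, and in ICC at 119 against 33.1 CPM. Among FB it was at 64.5 against 17.8 CPM in PDGFRAhi FB, 132 against 20.3 CPM in Fgfr2 FB and 58.2 against 24.8 CPM in other FB. In SMC (50.3 against 54.8 CPM) and CD81 FB (21.3 against 20.9 CPM) the interval spans 0. In the pooled mural cells of the LI library 4 of 5 members (Kcnj8, Abcc9, Kcnn3 and P2ry1) were at least 2-fold apart by sex, Kcnn3 with 0 UMIs in male cells, but so were 27.7% of 9341 genes, from 34 male cells. In SI mural cells none of 4 members was (4.31% of 8789 genes), with Kcnj8 at 268 CPM in male and 197 CPM in female cells.

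Of 5 mural markers compared by sex in pooled LI FB, Rgs5 (log2 -0.76, -0.94 to -0.58) and Vtn (-0.95, -1.47 to -0.27) were lower in male cells, and the intervals of the other 3 held 0. Rgs5 was at 38.5 CPM in male and 65.8 CPM in female LI FB, Vtn at 0.72 and 2.34 CPM, Notch3 at 1.74 and 2.94 CPM, and Higd1b at 0 and 0.18 CPM. Cox4i2 was at 4.63 and 4.02 CPM, and in other FB at 6.18 and 2.30 CPM, a log2 difference of 1.12 (0.41 to 1.79). The part of mural RNA in the Kcnj8 difference was not tested. Most male LI cells were in clusters of their own. A cluster of 663 cells led by Areg and Ereg, with Grem1 at 2356 CPM, held 267 CPM of Kcnj8, in 46.9% of its cells, and 84.2 CPM of Abcc9. A cluster of 627 cells with Cd74 and Cxcl9 among its leading genes held 72.9 CPM of Kcnj8. The SI cluster led by Serpina3f, Cd74 and Cxcl9 was 84.7% male and held 10.7 CPM.

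**Figure D3:**
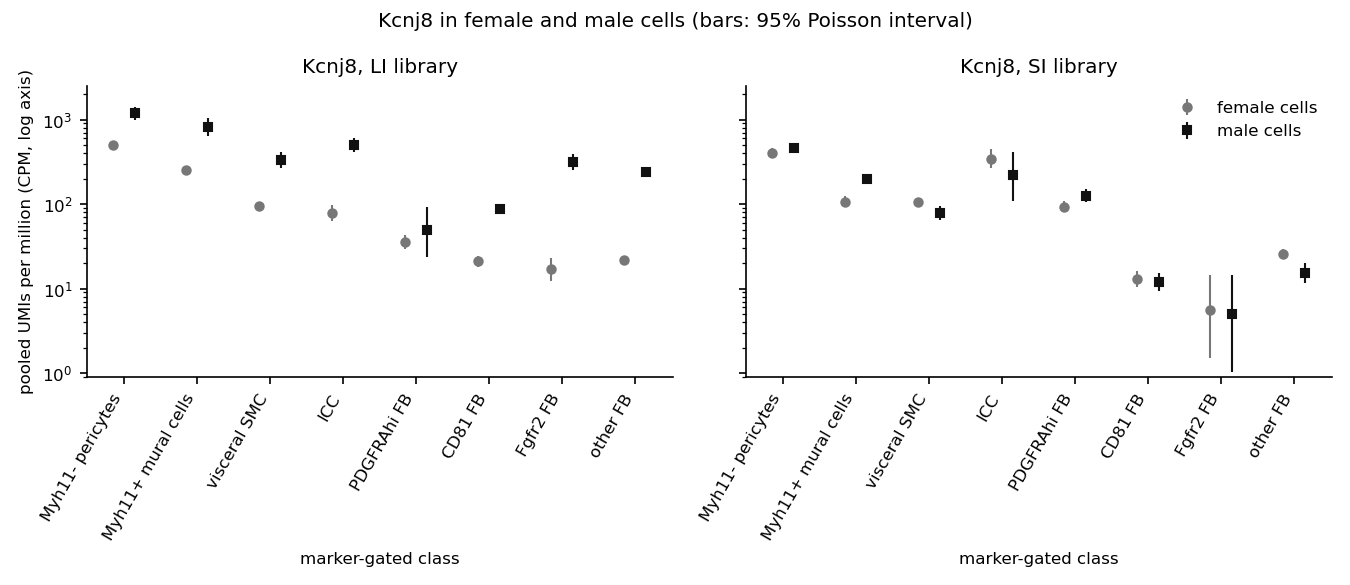
Kcnj8 (CPM, log axis) in cells called female (grey circles) and male (black squares) in each class of the LI library, left, and the SI library, right, with bars for the exact 95% Poisson interval. Male LI cells lie above female LI cells in every class, with overlapping intervals in PDGFRAhi FB, and in the SI panel Myh11+ mural cells (199 against 107 CPM) show the widest gap in that direction.

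Kcnn3 and P2ry1, the channel and receptor of purinergic inhibition, had lower levels, spread over several classes. Kcnn3 was highest in ICC (60.4 CPM, 49.0 to 73.8) and other FB (58.1 CPM, 55.3 to 61.0) in the LI library, with overlapping intervals, and in other FB (140 CPM, 134 to 146) in the SI library. These Kcnn3 levels differed between the sexes, at 76.6 CPM in female and 4.96 CPM, from 1 UMI in 35 cells, in male LI ICC, and at 169 and 81.9 CPM in SI other FB. In male LI cells alone PDGFRAhi FB (64.5 CPM in 30 cells) and other FB (64.4 CPM in 362 cells) were highest and level. P2ry1 was at 31.5 CPM (23.4 to 41.5) in LI ICC and 29.9 CPM in LI other FB. In the SI library it was at 32.9 CPM in Fgfr2 FB, 30.8 CPM in other FB and 26.0 CPM in PDGFRAhi FB, again with overlapping intervals between neighbours in this order. SI SMC were at 20.02 CPM (16.1 to 24.6), overlapping PDGFRAhi FB, while CD81 FB were at 6.52 CPM and SI ICC at 3.93 CPM, from 1 UMI in 49 cells. PDGFRAhi FB were gated on UMIs of any 4 of 8 markers, with no minimum level of Pdgfra. As a class they did not stand out, since none of 5 members was at least 2-fold above the other 3 FB classes in both libraries (3.67% of 8633 genes). In the SI library alone Kcnj8, at 113 CPM against 18.1 CPM, Abcc9, at 50.7 against 19.7 CPM, and Kcnmb1, at 13.7 against 2.50 CPM, were. The mural marker list summed to 227 CPM in SI PDGFRAhi FB, with 1 of 8 markers at 0, and to 463 to 1139 CPM in the other SI FB classes, sums made up mostly of Rgs5 (124 CPM in SI PDGFRAhi FB and 894 CPM in SI other FB). The visceral SMC list summed to 478 CPM there, against 113 to 255 CPM in the other SI FB classes. The part of mural or muscle RNA in these levels was not tested.

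Shares of cells were also set beside those of gated immune cells. Kcnn3 was seen in 18.6% of LI and 34.7% of SI other FB, against 3.62% and 3.17% of pericytes, and against 11.4% (5.59% to 19.9%) and 21.9% (13.1% to 33.1%) of the 88 and 73 immune cells. The LI share of Kcnn3 in other FB lies within the interval of immune cells, and the SI share above it. P2ry1 was seen in 11.2% and 12.9% of other FB, which lies within the intervals of immune cells (4.01% to 17.1% and 4.85% to 20.5%). Pericytes held P2ry1 in 2.90% and 1.06% of cells, so its share differs between types. The share in other FB is not separated from that of immune cells, which are no clean background, so this cannot tell expression from background. The same is true of Kcnj8 in LI other FB, at 12.3% of cells.

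A distinct group of fibroblasts held both genes at higher levels. In each library 1 cluster had Jam2, Tmem229a, Fibin, Chodl and Kcnn3 among its 10 leading genes, although Kcnn3 and P2ry1 had been kept out of clustering. In the LI cluster (608 cells, 6.16% of cells) Kcnn3 was at 226 CPM (209.6 to 244) with a UMI in 49.0% of cells, and P2ry1 at 92.6 CPM (82.0 to 104) in 30.4%. Other LI cells held 29.8 and 17.3 CPM. In the SI cluster (767 cells, 9.70%) Kcnn3 was at 584 CPM (559 to 609.8) in 83.1% of cells and P2ry1 at 62.1 CPM (54.2 to 70.8) in 20.3%, against 43.6 and 14.4 CPM in other SI cells. These clusters held 28.1% and 49.8% of all Kcnn3 UMIs and 21.6% and 24.2% of all P2ry1 UMIs of their libraries.

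The ICC and muscle markers compared were lower in both clusters than in the other cells of their library, which include the ICC and SMC. Myh11 was at 12.7 CPM in the LI and 34.8 CPM in the SI cluster, against 132 and 297 CPM in other cells, and Actg2 at 59.9 and 77.8 CPM, against 149 and 434 CPM. Kit was at 11.03 and 0.84 CPM and Ano1 at 7.02 and 2.25 CPM. In the clusters Actg2, Kit and Ano1 were above their levels in FB outside the gate described in the next paragraph. In those FB Actg2 was at 40.1 and 39.4 CPM, Kit at 3.14 and 0.34 CPM and Ano1 at 5.14 and 1.89 CPM. FB inside that gate held Actg2 at 38.4 and 29.9 CPM, Kit at 6.88 and 0.26 CPM and Ano1 at 1.32 and 2.10 CPM. Pdgfra was at 273 and 736 CPM and Gdf10 at 117 and 184 CPM in the clusters. In the LI cluster, 45.0% (39.2% to 50.8%) of cells with a Kcnn3 UMI also held P2ry1, against 16.5% (12.5% to 21.1%) of cells without. In the SI cluster the shares were 22.6% (19.4% to 26.1%) and 9.23% (4.86% to 15.6%). The members of the ATP-sensitive channel differed between the libraries here, with Kcnj8 at 20.4 CPM in the LI and 87.9 CPM in the SI cluster, and Abcc9 at 44.5 and 110.1 CPM. The mural marker Rgs5 was at 175 and 969 CPM, and its part in these values was not tested. Of sexed cells 0.53% were male in the LI and 13.7% in the SI cluster.

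The cells were also picked without clusters, but by leading genes of these clusters, so largely the same cells were taken and the values below are a description, not a second line of evidence. FB with UMIs of at least 3 of Jam2, Fibin, Tmem229a, Chodl and Car8, a gate set after the clusters had been seen, numbered 587 in LI and 665 in SI. Kcnn3 was at 204 CPM in these LI cells and 30.6 CPM in the other LI FB, and at 477 and 61.8 CPM in SI. P2ry1 was at 99.7 and 16.8 CPM in LI and at 51.4 and 17.1 CPM in SI. Rgs5 was also higher in the picked cells, at 184 against 50.5 CPM in LI and 886 against 619 CPM in SI.

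**Figure D4:**
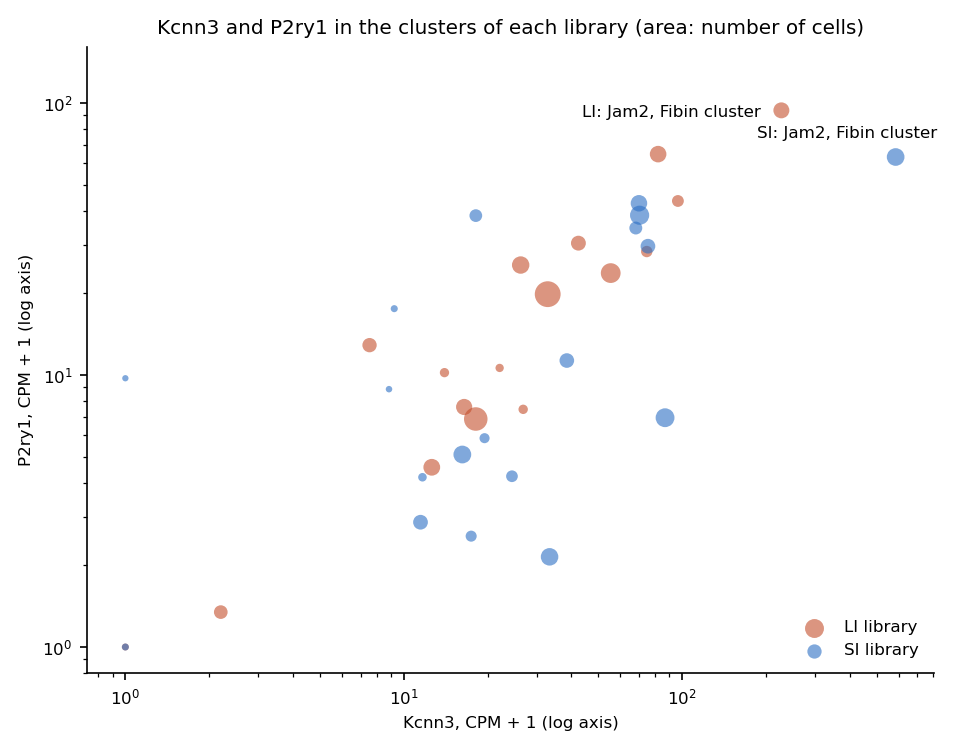
Kcnn3 against P2ry1 (CPM + 1, both axes log) in the clusters of the LI library (red) and SI library (blue), with the area of a point growing with its number of cells. The 2 labelled clusters, led by Jam2 and Fibin, have the highest Kcnn3 of their library (226 and 584 CPM) and the highest P2ry1 (92.6 and 62.1 CPM).

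UMIs of Kcnn3 and P2ry1 were also found in ICC. In gated LI ICC 17.3% of cells held Kcnn3 and 12.8% held P2ry1, shares within the intervals of LI immune cells (5.59% to 19.9% and 4.01% to 17.1%). The LI Kit cluster held 95.6 CPM of Kcnn3 (79.1 to 115) and 42.5 CPM of P2ry1 (31.7 to 55.7), and the LI cluster led by Lcn2 and Hand1 25.9 and 6.47 CPM. In the SI Kit cluster both genes were at 0 in 39 cells, which allows up to 15.7 CPM by the limit of 3 UMIs. The 62.8 CPM of Kcnn3 in gated SI ICC rested on 16 UMIs in 4 of 49 cells.

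Kcnma1 and Kcnmb1, the large conductance channel, were highest in visceral SMC. Kcnma1 was at 80.8 CPM (71.5 to 91.0) in LI SMC, with a UMI in 33.5% of cells, and 44.2 CPM (38.3 to 50.8) in SI SMC, in 21.8%. Immune cells held a Kcnma1 UMI in 6.82% (2.54% to 14.3%) and 9.59% (3.94% to 18.8%) of cells, the latter overlapping the interval of SI SMC (18.6% to 25.3%). The next class was 3.60-fold lower in the LI and 3.95-fold lower in the SI library. In LI SMC Kcnma1 was at 38.7 CPM in 26 male and 87.0 CPM in 468 female cells (log2 -1.15, -2.19 to -0.26). Kcnmb1 was at 31.1 CPM (25.4 to 37.6) and 45.8 CPM (39.8 to 52.4) in SMC, in 17.2% and 24.8% of cells. Kcnj8, Kcnma1 and Kcnmb1 were the 3 of 6 genes at least 2-fold above FB in SMC of both libraries, beside 3.65% of 8529 genes.

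Subunit and pore parted in the vessel wall. Myh11+ mural cells held Kcnmb1 at 18.9 CPM (12.6 to 27.1) and 29.3 CPM (24.6 to 34.8), but Kcnma1 at only 5.86 CPM (9 UMIs) and 1.53 CPM (7 UMIs). Against FB, Kcnma1 was lower in Myh11+ mural cells by a log2 of -1.52 (-2.42 to -0.69) in LI and -2.13 (-2.79 to -1.40) in SI, while Kcnmb1 was higher by 2.83 (2.25 to 3.36) and 2.74 (2.43 to 3.05). A transcript seen from 1 end can be missed where another end is used, and with 31 coding transcripts of Kcnma1 this was not tested. Outside muscle, Kcnma1 reached 50.0 CPM (44.4 to 56.1) in a LI FB cluster of 420 cells led by Prg4 and Cthrc1, where Kcnn3 was at 1.20 and P2ry1 at 0.34 CPM. Those cells had a median of 14598 UMIs, so the share of 36.9% of cells with a Kcnma1 UMI is raised by depth, which the CPM is not.

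The 2 SI SMC clusters differed in these genes too. The Pcp4 cluster held 76.9 CPM of Kcnmb1 (60.2 to 96.8) against 41.1 CPM (32.5 to 51.2) in the Hhip cluster, with Kcnma1 at 54.5 and 66.0 CPM and overlapping intervals. P2ry1 went the other way, with 3.203 CPM (3 UMIs) and 37.4 CPM (29.3 to 47.1). The LI SMC cluster held 107 CPM of Kcnma1, 38.8 CPM of Kcnmb1 and 11.8 CPM of P2ry1.

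The libraries were compared for each of 39 gene and class pairs with at least 10 CPM in either library. Of these, 14 were at least 2-fold apart, 6 higher in LI and 8 higher in SI. Kcnn3 was higher in SI in all 4 of its pairs past 2-fold, which were SMC (log2 of LI over SI -1.42, -2.01 to -0.85), PDGFRAhi FB (-1.07, -1.41 to -0.73), CD81 FB (-1.76, -1.93 to -1.60) and other FB (-1.25, -1.35 to -1.16). In female cells alone these were -2.32, -1.63, -2.25 and -1.59. In male cells alone they were 1.07, 0.52, -1.18 and -0.34, and the first 2, from 5 and 13 LI UMIs, had intervals that span 0.

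Kcnj8 was higher in LI in CD81 FB (1.72, 1.51 to 1.94), Fgfr2 FB (3.39, 2.51 to 4.33) and other FB (1.20, 1.05 to 1.36), and higher in SI in PDGFRAhi FB (-1.53, -1.82 to -1.25). In LI immune cells Kcnj8 was at 84.6 CPM (63.9 to 109.9), from 56 UMIs in 14 cells, up to 13 in a cell. This was above its level in every LI FB class (38.4 to 58.1 CPM), with an interval that overlaps that of Fgfr2 FB. In SI immune cells Kcnj8 was at 9.59 CPM (3.52 to 20.9). Gated immune cells are no clean background, and the part of background in these ratios was not tested. The ratios also differed with the sex of the cells. In female cells alone the log2 ratio was 0.65 (0.30 to 1.001) in CD81 FB, 1.46 (0.14 to 2.91) in Fgfr2 FB and -0.24 (-0.45 to -0.029) in other FB, while PDGFRAhi FB stayed at -1.36 (-1.71 to -1.01). Abcc9 was higher in LI in Fgfr2 FB (2.93, 1.94 to 3.94) and higher in SI in ICC (-1.61, -2.13 to -1.06) and PDGFRAhi FB (-1.15, -1.54 to -0.77). In male cells alone the Abcc9 ratio was -0.75 (-1.90 to 0.53) in ICC and 0.65 (-0.35 to 1.57) in PDGFRAhi FB, from 35 and 30 LI cells, and in female cells -2.42 (-3.12 to -1.70) and -1.58 (-2.06 to -1.10). Kcnj8 in ICC was 1.998-fold higher in SI, just under the threshold, and 4.32-fold higher with female cells only. In male cells it was higher in LI ICC, at 506 against 224 CPM (log2 1.17, 0.24 to 2.27), from 35 and 9 cells. Of the 8 mural markers 7 reached 20 CPM in SI ICC, summing to 1127 CPM, and 2 in LI ICC, summing to 846 CPM, and their part in the Kcnj8 and Abcc9 ratios of ICC was not tested. P2ry1 and Kcnma1 were higher in LI ICC, by 2.72 (0.44 to 4.91) and 1.59 (-0.76 to 3.81), each from 1 SI UMI, and Kcnmb1 was higher in SI PDGFRAhi FB (-1.64, -2.42 to -0.86). The share of these SI cells with a Kcnmb1 UMI, 8.81%, lies within the interval of gated SI immune cells (1.51% to 13.4%). Those cells are no clean background, so this cannot tell expression from background.

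Read by class, these counts stand beside the share of all genes that far apart. In SMC 1 of 6 members (Kcnn3) was at least 2-fold apart, with 4.74% of all genes. In ICC 3 of 5 were (Abcc9, P2ry1 and Kcnma1), but so were 23% of all genes, at 49 SI cells. In PDGFRAhi FB 4 of 5 were (Kcnj8, Abcc9, Kcnn3 and Kcnmb1, all higher in SI over all cells), with 6.16% of all genes. In male cells alone Abcc9 and Kcnn3 (0.52, -0.48 to 1.42) had the opposite sign there, with intervals that held 0. In CD81 FB 2 of 5 were (Kcnj8 and Kcnn3), with 5.67%, in Fgfr2 FB 2 of 5 (Kcnj8 and Abcc9), with 6.29%, and in other FB 2 of 5 (Kcnj8 and Kcnn3), with 3.53%. The kit used for each library was not stated in the sources used here, and its part in these ratios was not tested.

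**Figure D5:**
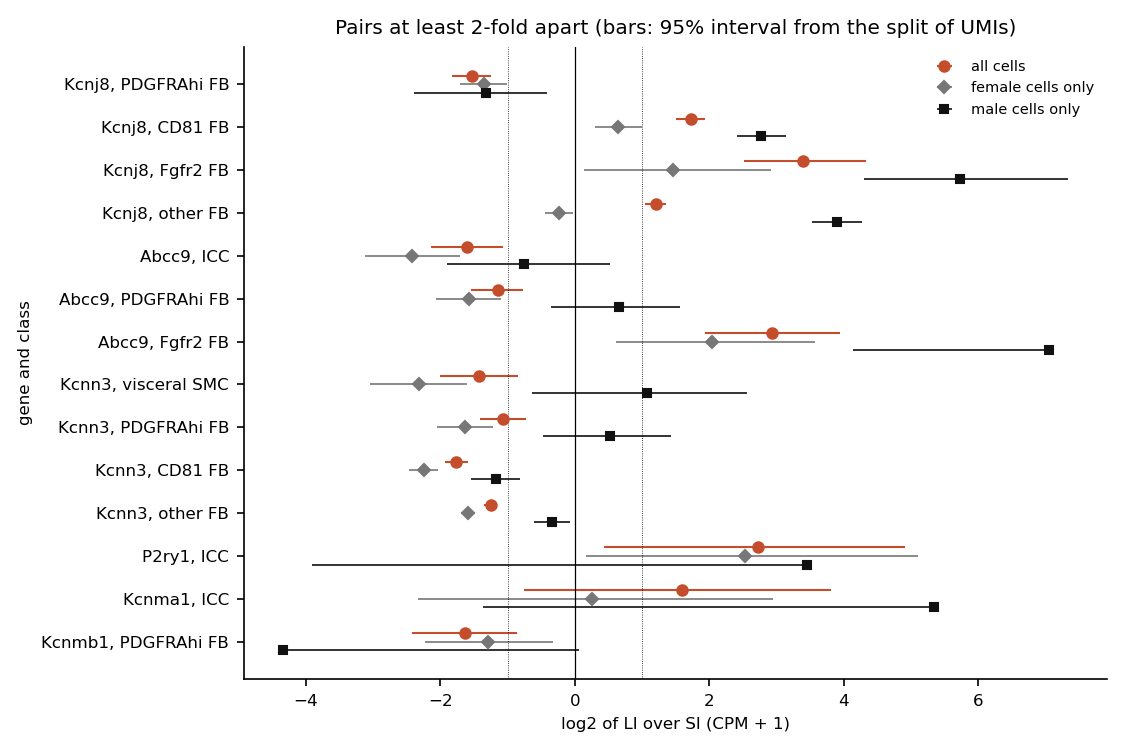
The 14 gene and class pairs at least 2-fold apart between the libraries, as log2 of LI over SI (CPM + 1), with exact 95% intervals from the split of UMIs, for all cells (red circles), female cells only (grey diamonds) and male cells only (black squares). Dotted lines mark 2-fold. Kcnj8 in other FB is at 1.20 with all cells and at -0.24 with female cells only.

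Kcnj8 and Abcc9 were seen in the same cells. Abcc9 was found more often in cells with a Kcnj8 UMI than in cells without in all 16 pairs of class and library. In 14 of the 15 pairs with at least 10 cells on each side the intervals were apart. In LI pericytes the shares were 79.8% (73.5% to 85.2%) and 52.6% (40.9% to 64.0%), and in SI Myh11+ mural cells 69.9% (63.0% to 76.2%) and 17.6% (14.3% to 21.2%). In SI SMC they were 49.7% and 9.55%. Deeper cells hold more UMIs of both genes. With each cell thinned to 2000 UMIs the direction was kept in 14 of 16 pairs, with intervals apart in 10 of 15. Classes also mix cells of unequal levels, and the part of this in the co-detection was not tested.

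P2ry1 was more frequent in cells with Kcnn3 in 15 of 16 pairs of class and library, with intervals apart in 7 of 15. After thinning this held in 9 of 16, with intervals apart in 3 of 10. In LI other FB 26.9% (24.1% to 29.8%) of Kcnn3+ cells held P2ry1, against 7.63% (6.84% to 8.47%) of the rest, and thinned cells gave 14.7% and 4.40%. Kcnmb1 was more frequent in cells with Kcnma1 in 10 of 16 pairs, with intervals apart in 1 of 10. After thinning this held in 2 of 15, with intervals apart in 0 of 8. In SMC, where both were highest, the shares were 23.5% (17.5% to 30.4%) and 14.0% (10.6% to 18.1%) in LI and 34.8% (26.8% to 43.6%) and 22.0% (18.3% to 26.0%) in SI. Thinned, they were 13.0% (6.41% to 22.6%) and 6.36% (4.27% to 9.07%) in LI and 13.8% (6.15% to 25.4%) and 8.37% (6.14% to 11.1%) in SI, with overlapping intervals.

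Across the 16 class and library profiles, Kcnj8 and Abcc9 had a Pearson r of 0.97 on log2(CPM + 1), Kcnn3 and P2ry1 of 0.59, and Kcnma1 and Kcnmb1 of -0.00095. These are descriptions, since the profiles share libraries, depth and gating. Among 8727 genes with at least 20 CPM in 1 profile, the genes most like Kcnj8 were 1810037I17Rik (r 0.93), Btf3l4, Pfdn4, G3bp1 and Slc7a2. Those most like Abcc9 were Slc7a2 (0.93), a cationic amino acid transporter, then Ift57, Cds2, Cobll1 and Sgip1. Kcnn3 was most like Plekha6 (0.89), Glmp, Pccb, Angptl2 and Jam2 (0.86), and P2ry1 like Dchs1 (0.90), Sorl1, Tspan9, Acbd3 and Mdk. Kcnma1 was most like Bche (0.89), Clip4, Eef2k, Cldn10 and Aprt. Kcnmb1 was most like Ilk (0.95), integrin-linked kinase, then Filip1, Itgb1, Rbm38 and Tpm1, of which Itgb1 is the gene the cells had been sorted on.

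Few other potassium channel genes reached these levels. Of 96 other Kcn genes and Abcc8, 83 were detected and 10 reached 20 CPM in a class of both libraries, all 10 with the same highest class in both. In the vessel wall these included Kcne4, an accessory subunit, at 121 and 87.2 CPM in LI and SI pericytes, and Kcnab1 (29.3 and 38.3 CPM) in Myh11+ mural cells. In ICC they included the background channel Kcnk3 (356 and 738 CPM), Kcnh2 (55.4 and 122 CPM) and Kcng4 (51.0 and 55.0 CPM), as well as the noncoding RNA Kcnq1ot1 (373 and 550 CPM). Kcnk2, another background channel, was highest in Fgfr2 FB, at 168 and 174 CPM.

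The genes around the channels were counted in the same way. Of 14 other purinergic receptor genes 12 were detected and 3 reached 20 CPM in both libraries. P2rx1, a channel opened by ATP, was highest in LI SMC (35.8 CPM), and level in SI SMC and SI Fgfr2 FB (38.3 and 38.1 CPM). P2ry14 was highest in LI SMC (187 CPM), and close in SI Fgfr2 FB and SI SMC (300 and 294 CPM), and P2rx4 was highest in LI ICC (106 CPM) and close in SI Fgfr2 FB and SI ICC (51.4 and 51.0 CPM). Of 17 calcium entry and release genes 9 reached 20 CPM in both libraries, 5 with the same highest class. Among these were the L-type channel Cacna1c in Myh11+ mural cells (48.2 and 53.9 CPM) and the store-operated calcium entry genes Orai1 (90.7 and 82.5 CPM) and Stim1 (59.8 and 66.7 CPM) in ICC. All 6 nitric oxide and cGMP response genes reached 20 CPM, 4 with the same highest class. Gucy1a3, the alpha subunit of the nitric oxide receptor, was highest in pericytes (874 and 965 CPM), and Pde3a (584 and 927 CPM), Pde5a (319 and 314 CPM) and Mrvi1 (126 and 141 CPM) in ICC.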

How the data were processed

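The authors aligned reads to mm10 with Cell Ranger 3.1.0 and deposited raw counts, whole UMIs per gene and cell barcode. The submitters' processing notes also list Seurat 3. The study then removed debris, doublets and contaminating cells for its own work, and whether the deposited tables had any such filter was not stated, nor which of the 3′ and 5′ kits made which library. Barcodes needed 500 genes and no more than 10% mitochondrial UMIs (85.3% of LI and 82.1% of SI barcodes passed), and doublets were kept in the main values because the calling threshold of Scrublet marked only 0 and 1 barcodes.

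A cell entered a class with UMIs of at least 4 of 8 mural, 4 of 8 visceral SMC, 3 of 4 ICC, 4 of 8 PDGFRAhi, 4 of 7 CD81 or 3 of 6 Fgfr2 FB markers and a lead over the next class of at least 0.1 of the list. Cells with 4 of 7 fibroblast lineage markers were other FB. Mural cells were divided by a Myh11 UMI. The thresholds of the gate were set after the marker counts had been seen. Clusters were made per library with scanpy 1.11.5 and leidenalg 0.10.2 on 2000 variable genes and 30 principal components, without Kcn, P2ry, P2rx, Abcc9 and sex-linked genes. Cells with Xist and no Y-linked UMI were called female, and cells with a Y-linked UMI and no Xist male.

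CPM are UMIs of a gene over all UMIs of a class. CPM carry exact Poisson, shares Clopper-Pearson and ratios binomial 95% intervals, which cover counting error only. Ratios have a pseudocount of 1 CPM, which understates low genes, and a minimum of 10 CPM in 1 group. With a single library for each gut segment no test was made, since cells do not stand in for replicates. The code for the ratios was tested on simulated data. TMM factors came from edgeR 4.0.16. Besides the 6 members, the text names the 5 genes with the highest correlation to each and up to 25 channel and pathway genes of at least 20 CPM in a class of both libraries, and leading genes of clusters and markers were named after their values were seen. Gucy1a3 and Gucy1b3 were matched through RefSeq synonyms. The members and lists were chosen with earlier results of these data known. Some of these genes are not reported here.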

Additional observations from a re-analysis of the deposited data

Results flagged for a closer look

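The LI over SI difference of Kcnj8 went in opposite directions in different fibroblast classes, which was not tested. Its log2 ratio was -1.53 in PDGFRAhi FB, against 1.72 in CD81 FB, 3.39 in Fgfr2 FB and 1.20 in other FB. For Abcc9 the ratio was -1.61 in ICC and -1.15 in PDGFRAhi FB, against 2.93 in Fgfr2 FB.

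Kcnj8 in male over female FB was at a log2 of 2.76 in the LI library and -0.22 in the SI library, a difference between the libraries that was not tested. Sex, embryo and graft cannot be told apart in these cells.

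Cells that met no marker rule held both genes of the ATP-sensitive channel. Kcnj8 was at 289 CPM in 325 ungated LI cells and 215 CPM in 182 ungated SI cells, and Abcc9 at 120 and 131 CPM. The median depth of these cells was 1704 and 1750.5 UMIs, and the class of such shallow cells was not tested.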

How the results depend on the processing

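The number of members with the same highest class in both libraries, 4 of 6, was 4 or 5 under the other settings (looser and stricter cell filter, doublet removal, classes from clusters, stricter gate, mean of single cells, female cells) and 2 with male cells only, an alternative added after seeing the data, in which LI SMC numbered 26. The 14 pairs at least 2-fold apart became 13 to 19 under these and other scalings, pseudocounts and minimums, and 25 with male cells only. Of the called ratios under single settings, 138 stayed at least 2-fold apart in the same direction, 10 came under 2-fold and 4 changed sign. With male cells only, Kcnn3 was at 1.07 in SMC and 0.52 in PDGFRAhi FB, and Abcc9 at 0.65 in PDGFRAhi FB. With female cells only, Kcnj8 was at -0.24 in other FB. Fgfr2 FB had no cluster of its own, so clusters gave no value for it. Thinning to 2000 UMIs lowered the class and library pairs with more frequent co-detection from 41 to 25 in all, from 15 to 9 for Kcnn3 with P2ry1 and from 10 to 2 for Kcnma1 with Kcnmb1, where fewer UMIs remain. By Spearman correlation 15 of the 30 most similar genes were the same. The causes of the changes with male or female cells and with Spearman correlation were not tested. TMM factors lay between 0.971 and 1.03. No paired analysis was possible because there was 1 library per group. Depth limits P2ry1, Kcnma1 and Kcnmb1 outside muscle, and all genes in the 49 SI ICC.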
